A study of Homo sapiens with 2 samples.

Results

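DNA replication and cell division genes were followed between a CD2-positive and a CD2-negative subclone of HMC1, a human mast cell leukaemia line in long use. The 59 genes were taken from a list that was chosen with earlier results of these data known. Of them, 58 had at least 1 probe set annotated to that gene alone. CDKN2C was not analysed here. The 58 genes stand among 19752 genes named on the Affymetrix U133 Plus 2.0 array. Where a gene had several probe sets, the one with the greatest mean log2 value of both arrays stood for it. Of the listed genes, 29 act in S phase (replication and nucleotide supply), 21 are mitotic (G2 and M phase), and 9 control the passage from G1 to S phase.

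One array held RNA of the subclone with surface CD2 and the other RNA of the subclone without it, so there was 1 array per group. Both subclones came from the same line by fluorescence-activated sorting with an antibody to CD2, the adhesion receptor that binds CD58, and the labels name no treatment of either. The sources used here give no culture density, passage or share of cells in each cycle phase. Each subclone is a single population, so a difference between them cannot be told apart from a difference between any pair of isolates of the line. With 1 array per group there was no test, no standard error and no replicate check. Every difference below is log2 CD2-positive minus CD2-negative intensity, and it compares these arrays, not the conditions.

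In a dividing cell the origin recognition complex, CDC6 and CDT1 load the MCM helicase on DNA in G1. The helicase is switched on in S phase by CDC45, the GINS complex and MCM10, and polymerases held by the PCNA clamp then copy both strands. Genes of this set are known targets of E2F transcription factors, which bind sites close to the start of transcription. Genes for mitotic kinases, cyclins and spindle proteins are transcribed later, and many carry a cell cycle genes homology region (CHR) that the DREAM and MYB-FOXM1 complexes bind, often close to CCAAT boxes for NF-Y. Mature mast cells in tissue rarely divide, whereas HMC1 cells grow continuously.

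The RefSeq promoters of 5 members are shown because they carry these elements of both classes and belong to genes described below. Each stretch is the 250 bases before the annotated start in build GRCh38.p14, written 5′ to 3′ on the gene's own strand, and capitals mark every match to the motifs searched. MCM6 lies at chr2:135876444-135876693 on the minus strand, PCNA at chr20:5126623-5126872 on the minus strand, CCNB2 at chr15:59104896-59105145, CDK1 at chr10:60778081-60778330 and NUSAP1 at chr15:41332631-41332880, the last 3 on the plus strand.
MCM6: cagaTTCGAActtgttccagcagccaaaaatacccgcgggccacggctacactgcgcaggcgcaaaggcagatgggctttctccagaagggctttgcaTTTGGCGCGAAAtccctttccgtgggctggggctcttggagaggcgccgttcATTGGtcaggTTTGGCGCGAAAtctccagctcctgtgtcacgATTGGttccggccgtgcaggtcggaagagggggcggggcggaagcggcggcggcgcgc
PCNA: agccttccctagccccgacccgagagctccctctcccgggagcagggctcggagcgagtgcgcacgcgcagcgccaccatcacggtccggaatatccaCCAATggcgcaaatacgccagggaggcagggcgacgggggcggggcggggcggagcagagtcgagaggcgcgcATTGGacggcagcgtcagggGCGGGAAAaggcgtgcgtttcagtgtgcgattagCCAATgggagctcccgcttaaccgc
CCNB2: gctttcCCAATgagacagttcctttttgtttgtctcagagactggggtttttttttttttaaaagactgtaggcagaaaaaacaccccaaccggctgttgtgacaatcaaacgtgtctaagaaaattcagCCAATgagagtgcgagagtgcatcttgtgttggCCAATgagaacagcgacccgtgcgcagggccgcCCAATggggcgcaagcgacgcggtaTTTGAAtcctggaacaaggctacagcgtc
CDK1: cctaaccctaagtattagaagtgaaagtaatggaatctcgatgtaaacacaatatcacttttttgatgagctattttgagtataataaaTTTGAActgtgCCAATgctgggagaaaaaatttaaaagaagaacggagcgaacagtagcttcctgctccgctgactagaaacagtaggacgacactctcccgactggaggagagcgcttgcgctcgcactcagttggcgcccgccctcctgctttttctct
NUSAP1: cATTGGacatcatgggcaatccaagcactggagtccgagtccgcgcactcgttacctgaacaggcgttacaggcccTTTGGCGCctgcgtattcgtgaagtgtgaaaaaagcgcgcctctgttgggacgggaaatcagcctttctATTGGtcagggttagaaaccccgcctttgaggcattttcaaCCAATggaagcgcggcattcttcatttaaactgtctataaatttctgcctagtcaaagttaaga

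In MCM6 an E2F match on each strand overlaps the other in the run TTTGGCGCGAAA, and this run occurs at 2 places, with the second ending 79 bases before the start. PCNA holds a single E2F match, GCGGGAAA, which ends 52 bases before the start and reads on the opposite strand. CCNB2 has 4 CCAAT boxes and a CHR match, TTTGAA, that ends 24 bases before the start. CDK1 has a CHR match that ends 156 bases before its annotated start. NUSAP1 has an E2F match and 3 CCAAT boxes on either strand before the start. After the start, beyond the stretches shown, CDK1 has an E2F match and NUSAP1 a CHR match, which the counts below include.

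Promoters of 49 of the 59 listed genes were in the table used, and no promoter was matched for MCM4, MCM5, CCNE2, CDK2, CCND2, AURKA, BIRC5, TTK, UBE2C and TPX2. Windows of 300 bases, 250 before and 50 after the start, were searched on both strands. The E2F motif was matched by TTTCCCGC, by TTTGGCGC, by TTTCGCGC or by TTTGCCGC, the CHR motif by TTTGAA or by TTCGAA, and the NF-Y motif by CCAAT. The second CHR form reads the same on both strands, so each such match counts once. An E2F match was present in 15 of 27 S phase promoters (55.6%) and in 3 of 16 mitotic promoters (18.8%), against 3.33% of all 27305 promoters. A CHR match was present in 12 of 16 mitotic promoters (75.0%) and in 2 of 27 S phase promoters (7.41%), those of MCM6 and RRM1, against 16.6% of all promoters. CCAAT was found in 14 of 16 mitotic promoters (87.5%) and in 16 of 27 S phase promoters (59.3%), against 35.7% of all. Among 6871 promoters of genes that reached an intensity of 16 on either array, the shares were 5.73% for E2F, 11.5% for CHR and 37.7% for CCAAT. The mean GC content was 65.3% in S phase promoters, 60.1% in mitotic promoters and 64.9% in promoters of genes reaching 16, and the part of GC content in these shares was not tested. A match is a description of the sequence and does not show that a factor binds there.

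**Figure D1:**
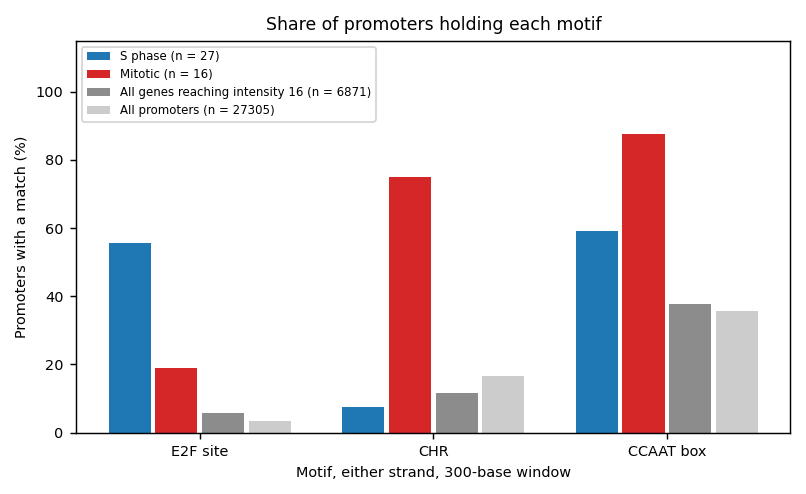
Share of promoters, in percent on the vertical axis, that hold an E2F, CHR or CCAAT match on either strand of a 300-base window, for S phase members (n = 27), mitotic members (n = 16), genes reaching an intensity of 16 (n = 6871) and all promoters (n = 27305). E2F matches stood in 55.6% of S phase promoters and CHR matches in 75.0% of mitotic promoters.

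Both arrays reported 54675 probe sets with a median intensity of 4, and the control probe sets for Bacillus transcripts, absent from human RNA, read 1 to 4. Precision is limited by the number of arrays. CD2 itself read 219 and 13; here and below, the CD2-positive value comes first. All 18 hybridisation control probe sets were dimmer for the CD2-positive sample (median difference -0.18), and setting them to 0 shifts every difference up by that amount. Mast cell markers were present, with 7 of 8 measured genes at 64 or more. They differed more than the cell cycle genes did: CPA3 read 1220 and 207 (2.56), HPGDS 187 and 80 and MITF 276 and 154, whereas KIT read 1373 and 1328 (0.05). All 8 were higher on the CD2-positive array, and their summed intensity was 9785 and 6302. The IgE receptor gene FCER1A stayed under the floor at 27 and 8. Of 24 measured markers of T, B, myeloid, erythroid, megakaryocyte, stromal and epithelial cells, 16 stayed at or under the Bacillus level on both arrays, and only ITGA2B reached 64. The summed intensity of these other markers was 194 and 223. The part of either marker group in the differences below was not tested.

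A gene was compared when its higher array reached an intensity of 64 (log2 of 6), which 3564 genes did. This floor keeps rounding and background from dominating the differences, but 38 of the 58 measured members lay below it. The members nearest to it included RFC3, with 67 and 54, and RFC4, with 60 and 67, on the inside. On the outside they included TK1, with 57 and 35, and AURKA, with 56 on both arrays. Since most members were below the floor, values are also given without it. A difference of 2-fold (log2 of 1) served as the size rule. A 1.5-fold rule was used beside it.

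The listed cell cycle genes as a group read a little higher on the CD2-positive array. They were chosen with earlier results of these data known, so the counts describe this list and not cell cycle genes at large. Further genes of the same pathways above the floor, given below, had smaller medians, 0.05 for replication and 0.19 for mitosis. Of the 20 members above the floor, 17 had a positive difference, 2 a negative one and 1 was equal, against 41.9% positive among all genes above the floor. Their median difference was 0.25, whereas the median of all genes above the floor was -0.05. With the hybridisation controls set to 0, 19 of the 20 were positive, but so were 69.2% of all genes. No member above the floor differed by 2-fold, a size that 1.96% of all genes above the floor reached. At 1.5-fold, NUSAP1 was higher and PCNA lower, against 4.29% of all genes higher and 3.82% lower. NUSAP1, at 102 and 68, stood exactly at the rule. Rounding allows it a difference of 0.57 to 0.60, so its place past the rule is not settled. With the hybridisation controls at 0, 5 members were at least 1.5-fold higher (NUSAP1, CDK4, CCNB2, CDK1 and TPX2) and 0 lower, against 8.78% of all genes higher and 1.63% lower, and PCNA stood at -0.42. In bulk RNA, fewer cells in a cycle phase and less RNA per cell cannot be told apart.

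Without a floor, 50 of the 58 measured members were positive, 4 negative and 4 equal, against 29.9% positive among all genes, many of which were equal at the background level. Of the 50 positive members, 45 kept their sign for any value that rounds to the deposited whole number. The 28 members between 16 and 64 had a median of 0.31 with 24 positive, where 42.7% of all 4617 genes in that range were positive and their median was 0.00. Of all 11571 genes under 16, 2432 were positive, 2410 negative and the rest equal, which makes 21% positive. Of the 10 members in that range 9 were positive, but only 6 of the 9 kept their sign under rounding. CDK6, ORC1 and POLE2 did not. In 937 genes with several probe sets above the floor, the differences given by the 2 brightest were set against each other. The standard deviation per probe set was 0.13, a scale for probe behaviour that holds no spread between cultures.

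**Figure D2:**
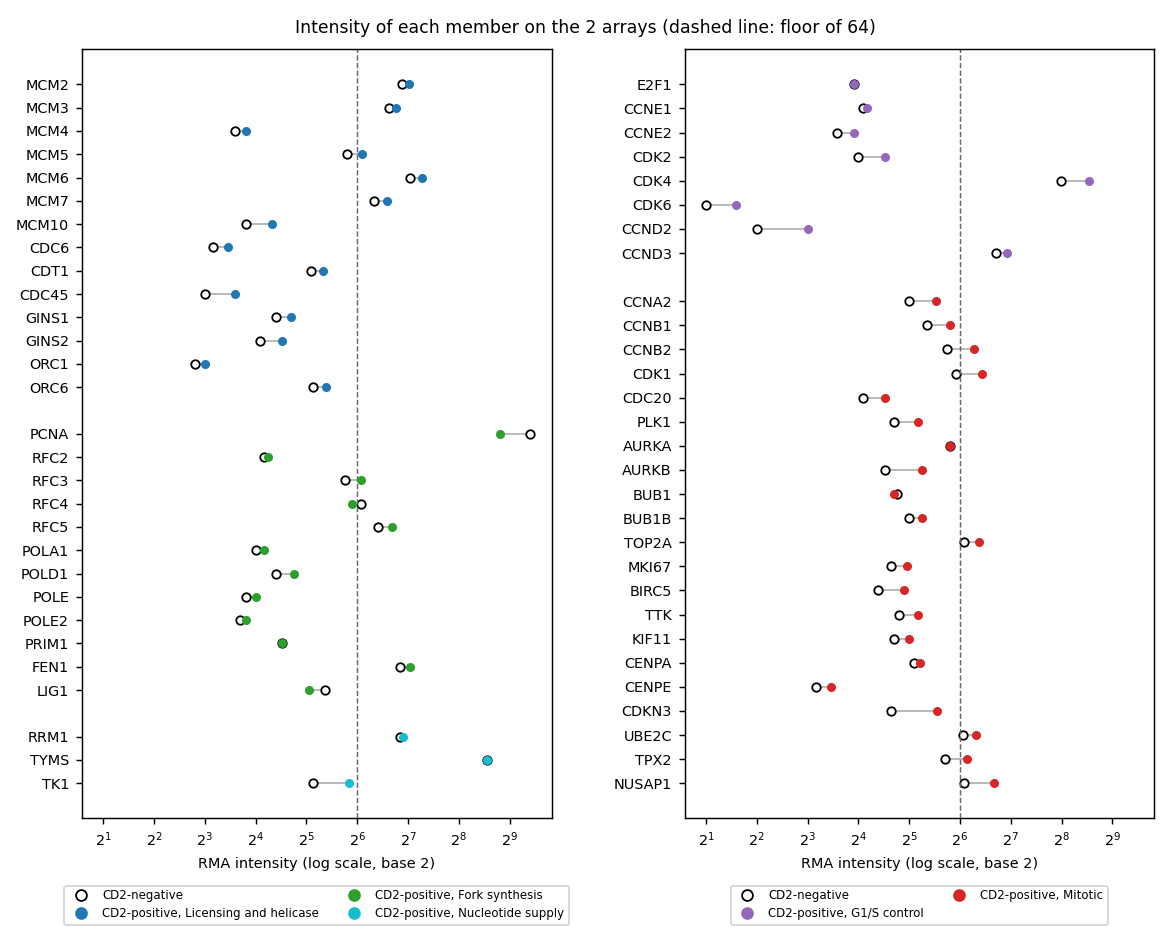
RMA intensity of the 58 measured members on a log scale of base 2, with the CD2-negative array as open circles and the CD2-positive array as coloured circles, grouped by role. Most coloured circles lie to the right of the open ones, while those of PCNA (446 against 679), RFC4, LIG1 and BUB1 lie to the left.

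All 14 genes for licensing and the replicative helicase read higher on the CD2-positive array, though the ORC1 difference lies within rounding. Of all genes without a floor 29.9% read higher, but many of these genes were equal at the background level. Among the 14, 10 reached a log2 value of 4 and all 10 were higher, against 42.4% of all genes that reached it. Of the 14, 5 were above the floor, with a median of 0.23. The MCM2 to MCM7 proteins form the ring that unwinds DNA ahead of the fork. MCM2 read 130 and 118. MCM3 read 108 and 99. MCM5 read 68 and 56. MCM6, whose paired E2F matches are shown above, read 154 and 131, a 1.18-fold difference. MCM7 read 96 and 81, and its other probe set above the floor read 66 and 56, with differences of 0.25 and 0.24. MCM4 was below the floor at 14 and 12. The 6 ring subunits thus differed in one direction and by similar amounts, from 0.13 to 0.28, of which the smallest does not exceed the probe set spread of 0.13.

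The loading and activating factors among the listed genes were all below the floor. MCM10, a scaffold of the starting fork, read 20 and 14, and CDC45, which joins the MCM ring to form the active helicase, read 12 and 8. These gave the largest differences of this role, 0.51 and 0.58. GINS1 and GINS2, subunits of the GINS complex that binds the same helicase, read 26 against 21 and 23 against 17. The other 2 probe sets of GINS2 lay at the background level of 2 and 3 and were equal. CDC6 read 11 and 9, and CDT1, the licensing factor that geminin holds back, read 40 and 34. ORC1 at 8 and 7 and ORC6 at 42 and 35 were also higher, although the ORC1 difference lies within rounding. Subunits of the origin recognition complex did not all go one way. Singled out after their values were seen, ORC2 (13 and 17), ORC3 (22 and 32), ORC4 (40 and 54) and ORC5 (57 and 74) were each lower in the CD2-positive subclone. These 4 are not among the listed genes, and of them only ORC5 reached the floor. These 4 differences ranged from -0.54 to -0.38, and they stayed negative, from -0.36 to -0.19, with the hybridisation controls set to 0.

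Fork synthesis genes were mixed and held the most negative member. PCNA, the sliding clamp that tethers polymerases to DNA, read 446 and 679 and thus differed by 1.52-fold, with the lower value in the CD2-positive subclone (-0.61). It was measured by 1 probe set. No other measured member had neighbours whose median lay beyond 0.2 in either direction: for PCNA, of the 20 nearest compared genes on chromosome 20, 10 on each side, 15 were negative and their median was -0.31. Relative to those neighbours PCNA differed by -0.30. The 5 other members on chromosome 20 had neighbour medians from -0.05 to 0.06, so none lay among low neighbours as PCNA did. Of these, GINS1, TPX2 and UBE2C were higher, and E2F1 and AURKA were equal. CDC25B, a phosphatase gene that activates cyclin-dependent kinases, lies on the same chromosome, where its neighbours had a median of -0.45, and read 39 and 47. The part of this stretch of chromosome in the PCNA value was not tested beyond that subtraction.

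RFC2 to RFC5 are subunits of the loader that opens PCNA around DNA. RFC3 read 67 and 54, RFC5 read 103 and 85, and both were higher in the CD2-positive subclone by 0.31 and 0.28. RFC4 read 60 and 67, a difference of -0.16 that becomes 0.02 with the hybridisation controls set to 0. RFC2 read 19 and 18, and its other probe set went the other way at 16 and 18, so its direction is not settled. The loader subunits did not share a direction in these arrays.

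FEN1, the nuclease that trims Okazaki fragments, read 131 and 114, and its other probe set above the floor read 108 and 82, with differences of 0.20 and 0.40. LIG1, the ligase that joins those fragments, went the other way at 33 and 41 (-0.31), below the floor and with a neighbour median of 0.06. The polymerase and primase genes were dim. POLD1, the catalytic subunit of polymerase delta, read 27 and 21, and its neighbours had a median of 0.18. POLE read 16 and 14, POLE2 14 and 13, and POLA1 18 and 16. PRIM1, the primase subunit that lays down RNA primers, read 23 on both arrays. Of these 5 genes only POLD1 differed by more than 0.20.

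Nucleotide supply genes ranged from equal to clearly higher. TYMS, thymidylate synthase, read 375 on both arrays, and its other probe set above the floor read 94 and 88. RRM1, the large subunit of ribonucleotide reductase, read 119 and 114. TK1, the thymidine kinase of the salvage pathway, read 57 and 35, a 1.63-fold difference, with a second probe set at 34 and 19. TK1 thus had a larger difference than all other S phase members, but it lies just below the floor. RRM2, the small reductase subunit and not a member, read 199 and 77, a 2.58-fold difference, on chromosome 2, where the median of its neighbours was 0.37. The 2 subunits of ribonucleotide reductase therefore differed by 0.06 and 1.37.

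Genes that control entry into S phase were higher or equal. CDK4, the kinase that D-type cyclins activate, read 373 and 255, a 1.46-fold difference (0.55), with a neighbour median of 0.00. It was measured by 1 probe set. CCND3, cyclin D3, read 122 and 105 (0.22). CCND2, cyclin D2, read 8 and 4, the only measured member at 2-fold, a size that 3.47% of all genes reached without a floor; rounding alone allows 0.74 to 1.28, and 2 of its 4 probe sets were equal. CCND1, cyclin D1 and not a member, went the other way at 22 and 44. CDK6 read 3 and 2, no higher than the Bacillus controls, so no difference can be given for it. CDK2, the partner of cyclins E and A, read 23 and 16, with its other 2 probe sets equal. Cyclin E genes were dim, with CCNE1 at 18 and 17 and CCNE2 at 15 and 12. E2F1, the transcription factor that drives S phase genes, read 15 on both arrays, and its dimmer probe set read 8 and 5.

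The mitotic members had a larger median difference than the S phase members. All 6 mitotic members above the floor were higher in the CD2-positive subclone, with a median of 0.46, from 0.26 to 0.58. Among all genes above the floor 41.9% were higher as deposited, and 69.2% with the hybridisation controls at 0. NUSAP1, a microtubule-binding protein of the spindle, read 102 and 68, a difference of 0.58, and its other probe set read 36 and 28. CCNB2, cyclin B2, read 78 and 54 (1.44-fold), and its other 2 probe sets lay at 2 to 4. CDK1, the kinase that starts mitosis, read 86 and 61 (1.41-fold), and its 2 other probe sets above background read 47 against 40 and 54 against 45. TPX2, which activates Aurora A on the spindle, read 70 and 52. TOP2A, the topoisomerase that untangles sister chromatids, read 83 and 68, and its second probe set above the floor read 70 and 42. These probe sets of TOP2A gave 0.29 and 0.74, a larger gap than the probe set spread of 0.13. UBE2C, the ubiquitin-conjugating enzyme of the anaphase-promoting complex, read 80 and 67.

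The 15 mitotic members below the floor went largely the same way, with 13 positive, 1 negative and 1 equal. Of all genes between 16 and 64, where 14 of the 15 lay, 42.7% were positive. CDKN3, a phosphatase that acts on cyclin-dependent kinases, read 47 and 25, a 1.88-fold difference, and its second probe set read 39 and 24. AURKB, the kinase of the chromosomal passenger complex, read 38 and 23 (1.65-fold), and BIRC5, survivin, a partner in that complex, read 30 and 21. All 4 probe sets of BIRC5 were positive. AURKA, the centrosomal Aurora kinase, read 56 on both arrays.

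Cyclins A2 and B1 followed cyclin B2: CCNA2 read 46 and 32, and CCNB1 read 56 and 41. PLK1, a kinase of mitotic entry, read 36 and 26. CDC20, the activator of the anaphase-promoting complex, read 23 and 17. Among spindle checkpoint kinases, TTK read 36 and 28 and BUB1B read 38 and 32, whereas BUB1 read 26 and 27. BUB1 had probe sets in both directions, and its sign turns with the hybridisation controls at 0. The proliferation marker MKI67 read 31 and 25, with 3 of 4 probe sets positive and 1 equal. The motor genes KIF11 and CENPE read 32 against 26 and 11 against 9, and the centromeric histone gene CENPA read 37 and 34. CENPA and BUB1 were thus among the mitotic genes with little difference.

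**Figure D3:**
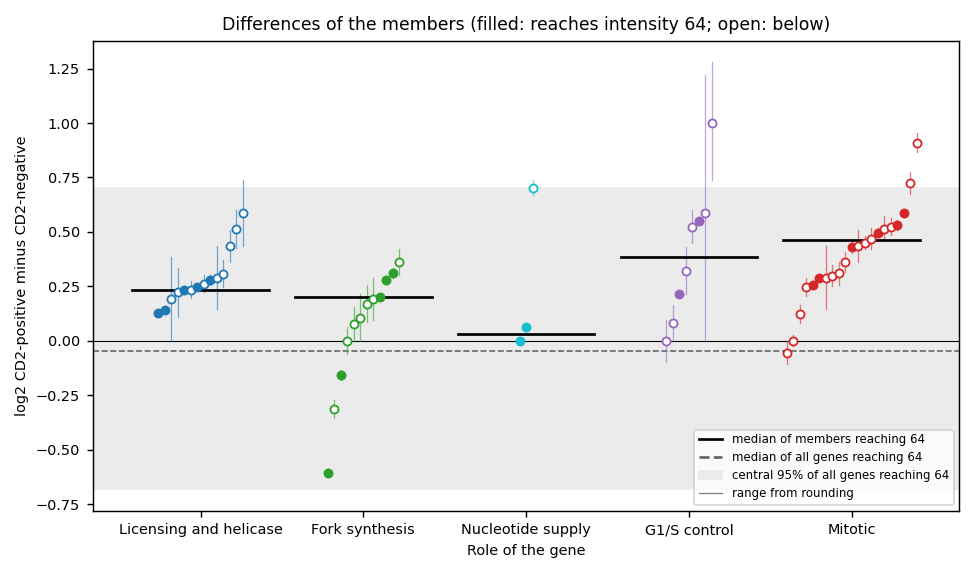
Log2 difference (CD2-positive minus CD2-negative) of each measured member by role, filled where the higher array reached 64 and open below it, with thin bars for the range that rounding allows, black bars for the median of members above the floor, a dashed line for the median of all genes above the floor (-0.05) and shading for the central 95% of those genes (-0.68 to 0.70). The mitotic median of 0.46 lies above the medians of the 3 S phase roles.

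The S phase median was 0.17 over 12 members above the floor and the mitotic median 0.46 over 6, a gap of -0.29. Of the 12 S phase members, 9 were positive, 2 negative and 1 equal, against 41.9% positive among all genes above the floor. With the hybridisation controls at 0, 11 of the 12 were positive, against 69.2% of all genes. The groups overlapped: 3 S phase members, MCM5, RFC3 and RFC5, exceeded the lowest mitotic member, UBE2C, and 4 mitotic members exceeded the highest S phase member. Without a floor the medians were 0.22 over 29 S phase and 0.43 over 21 mitotic members, and 4 S phase members (MCM10, CDC45, GINS2 and TK1) lay above the mitotic median. Over all 11 alternatives that gave a value, the gap stayed negative, from -0.37 to -0.21. Centring moves both medians alike and leaves the gap as it is. Genes are not replicates, and no test of this gap between 2 arrays was made.

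The promoter classes can be set beside these differences as a description. The 14 measured members with a CHR match had a median difference of 0.31 and the 34 without one 0.24. The 19 with an E2F match had a median of 0.19 and the 29 without one 0.30. The error of such a median is unknown with 1 array per group, so nothing is read from the gaps.

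**Figure D4:**
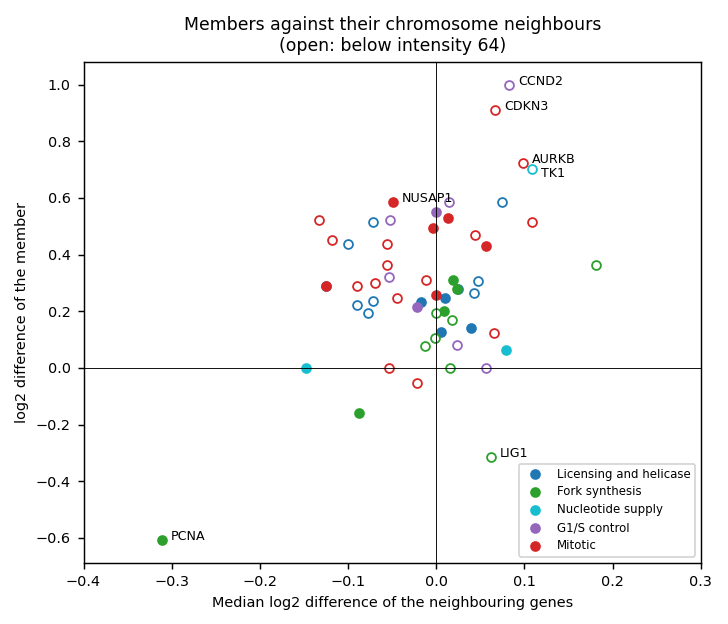
Log2 difference of each measured member (vertical axis) against the median log2 difference of up to 20 neighbouring compared genes on its chromosome (horizontal axis), coloured by role and open below an intensity of 64. PCNA stands alone at the lower left, with -0.61 against a neighbour median of -0.31, while all other members have neighbour medians between -0.15 and 0.18.

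Subtracting the median of the neighbours left the lists where they were, with 0.17 for S phase and 0.46 for mitotic members. PCNA, RFC4 and RRM1 were then the 3 members above the floor with a negative value.

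Further genes of the same pathways were described from lists of 34 replication, 37 mitotic and 32 regulator genes. Of 12 replication genes above the floor, 8 were positive and 4 negative, where 41.9% of all genes above the floor were positive. The 12 had a median of 0.05, and only RRM2 passed 2-fold. GMNN, which encodes the CDT1 inhibitor geminin, read 83 and 64. ORC5 read 74 in the CD2-negative subclone, as given above. Of 8 further mitotic genes above the floor, 6 were positive, against the same 41.9%, and 2 negative. The 8 had a median of 0.19, and none passed 2-fold. PRC1, a protein of the central spindle, read 67 and 51, RACGAP1, which acts in cytokinesis, read 145 and 117, and the checkpoint gene MAD2L1 read 64 and 53. Above the floor, the median of this further mitotic list was larger than that of the replication list, 0.19 against 0.05. It was smaller than the 0.46 of the mitotic members. Without a floor the 37 further mitotic genes had a median of 0.17, below the 0.22 of the S phase members. Of these 37, 24 were positive and 9 negative, against 29.9% positive among all genes, many of which were equal at the background level. Among the 37, 32 reached a log2 value of 4 and 20 of the 32 were positive, against 42.4% of all genes that reached it. The 33 measured genes of the replication list had a median of 0.07.

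The regulator list holds inhibitors of cyclin-dependent kinases, retinoblastoma and E2F family genes and stress-induced brakes, and it also holds drivers of division such as CCND1 and MYC. Of its 11 genes above the floor 10 were negative and 1 positive, but with the hybridisation controls at 0 the split was 6 negative and 5 positive. Among all genes above the floor, 55.7% were negative as deposited, and 69.2% were positive with the controls at 0. The median of the regulator list was -0.27, or -0.09 with that centring. Without a floor its median was 0.00 over 30 measured genes, with 10 positive and 13 negative. MDM2, the ubiquitin ligase of p53, read 61 and 127, a 2.08-fold difference and under 2-fold with the controls at 0 (-0.88). Its other probe set above the floor differed by -0.92, under 2-fold. Of its 10 probe sets 8 were negative, 1 positive and 1 equal, and their mean difference was -0.43. GADD45A, a gene induced by DNA damage, read 176 and 300. RB1, which encodes the retinoblastoma protein that holds E2F back, read 60 and 93, and its neighbours had a median of -0.19. The inhibitor genes CDKN1A (p21) and CDKN1B (p27) read 293 against 353 and 79 against 78. The sign of most regulators above the floor was thus opposite to that of most cell cycle members as deposited. With the controls at 0 the regulators were split, where most of all genes were positive.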

How the data were processed

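RNA of 2 HMC1 subclones was hybridised to 1 array each. Per the submitters' processing notes, the authors made the deposited intensity values with RMA in Affymetrix Expression Console 1.1. The values are whole numbers on a linear scale; the back-transformation and rounding were seen in the values only, and the sources used here do not give the type of background correction. Quantile normalisation in RMA removes any difference in total signal.

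Intensities were converted to log2. Of 54675 probe sets, 41097 carried 1 symbol, 1801 several and 11777 none in the platform annotation, and 41043 had an Entrez identifier in the RefSeq gene table, which gave current symbols and gene order. Probe sets with several symbols or none were left out. The members and gene lists were chosen with earlier results of these data known. All members were named; of other lists, the 3 genes above the floor with the largest absolute difference, and any further gene was chosen after its values were seen. No p-value was computed, because each group had 1 array. The calculation was tested on simulated data with differences of more than 2-fold planted in bright genes only. Smaller differences and dim genes were not covered. Alternatives were other floors, probe set rules, centrings, a lowess correction (span 0.3), neighbour subtraction and another phase assignment; a floor of log2 4 and leaving out PCNA were added after seeing the data. Python 3.11.15, pandas 2.3.3 and statsmodels 0.14.6 were used.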

Additional observations from a re-analysis of the deposited data

How the results depend on the processing

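The S phase and mitotic medians and the gap between them kept their sign under every alternative that gave a value. The centrings among these could not have changed a sign, since they raise both positive medians and leave the gap as it is. At a floor of log2 7 no mitotic member was left, so that alternative gave no mitotic median and no gap. With the hybridisation controls at 0, the S phase median was 0.35, the mitotic median 0.64 and the G1/S control median 0.56, since that centring adds the same amount to each. The G1/S control median, which rests on CDK4 and CCND3, was 0.55 both at a floor of log2 7 and when probe sets were averaged, where CDK4 alone was left, and 0.22 with plain probe set identifiers, where CCND3 alone was left. The number of members past the size rule was 1 with no floor and 2 at 1.5-fold, where NUSAP1 stood exactly at the rule. The number with a positive difference was 29 of 34 at a floor of log2 5, where 42.7% of all genes were positive. It was 41 of 48 at log2 4, against 42.4%, and 50 of 58 with no floor, against 29.9%. It was 4 of 6 at log2 7, 8 of 10 when probe sets were averaged and 10 of 13 with plain identifiers. For these last settings no share of all genes is at hand, so their counts are not read further. All of the counts follow the number of members compared. Averaging probe sets gave a mitotic median of 0.34, where UBE2C and TPX2 alone were left. No paired analysis was possible because each group held 1 array, and no array could be left out. Signal near the background limits CDK6, CCND2 and ORC1.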

Other observations

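One probe set annotated to both CENPA and SLC35F6 was left out of the values above. It read 54 and 48, with the CD2-positive value first here and below, a difference of 0.17.

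FOXM1 and MYBL2 encode transcription factors of the mitotic programme whose complexes bind CHR elements. FOXM1 read 25 and 16, and MYBL2 read 24 and 19, both below the floor. E2F7 and E2F8 are related repressors of E2F target genes. They went opposite ways, with E2F7 at 7 and 13 and E2F8 at 18 and 11, also below the floor. These genes were chosen after their values were seen.

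Of the 37 further mitotic genes, 9 read lower in the CD2-positive subclone, and 4 of the 9 had neighbours with a median under -0.2. On chromosome 1, ASPM, a spindle pole protein gene, read 28 and 35, CENPF, a kinetochore protein gene, read 42 and 52, and CKS1B, a subunit of cyclin-dependent kinases, read 177 and 190. Their neighbours had medians of -0.36, -0.31 and -0.33. CDC25B on chromosome 20 was given above. The other 5 did not lie among such neighbours: SMC4, a condensin subunit gene, read 192 and 204 with a neighbour median of -0.06, and KIF23 (14 and 16), ECT2 (22 and 23), NCAPD2 (29 and 32) and CCNF (18 and 20) had neighbour medians from -0.15 to 0.08. With the hybridisation controls at 0, CKS1B was positive at 0.08 and SMC4 at 0.09.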
